A study of Mus musculus with 6 samples.

Results

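Type I interferons are cytokines that cells release when they sense viral or displaced nucleic acid. They bind the receptor made of Ifnar1 and Ifnar2, whose kinases Jak1 and Tyk2 phosphorylate STAT proteins. With Irf9 these form a complex that binds interferon-stimulated response elements (ISRE) before its target genes. The targets include RNA sensors, antiviral effectors and the transcription factor Irf7, and T cells carry a low tonic level of many of them. The genes described here are 44 such targets, taken from a list of gene symbols, and they are 44 of the 31053 features of the count tables. By role the list holds 5 sensors, 3 transcription factors and signalling proteins, 3 genes of Isg15 conjugation and feedback, 4 Ifit genes, 5 Oas genes, 7 other antiviral effectors, 3 genes of ADP-ribosylation, 3 PYHIN genes and 11 others.

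RNA was measured in single cells of the pancreatic lymph nodes of 6 mice by 10x Genomics droplet sequencing, in which captured transcripts carry a molecular barcode, the unique molecular identifier (UMI). All 6 mice carried a floxed gene. The 3 mice called Cre-negative 1 to 3 lacked the CD4-Cre transgene, and the 3 called Cre-positive 1 to 3 had it. CD4-Cre acts in T cells that pass through a Cd4-expressing stage, CD8 T cells included, so that B and myeloid cells lie outside the lineage it targets. The labels give no strain, sex or age, and whether the gene was deleted in these cells was not examined here. By the labels' protocols each library came from its own mouse.

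The libraries held 8209 to 10936 barcodes and between 47149014 and 61321105 UMIs, and 51515 cells were kept, with a median of 4237 to 5587 UMIs per library. Pairs of libraries shared 12 to 36 barcodes. Cells were assigned to 5 classes by UMIs of gating genes such as Cd4, Cd8b1, Foxp3 and Cd79a. Each mouse gave 1537 to 2050 cells of the conventional CD4 T class, 190 to 271 regulatory T, 913 to 1408 CD8 T, 478 to 1293 B and 181 to 360 myeloid cells. Markers outside the gates were then read in each class. The T cell genes Trac, Trbc2, Cd2, Cd28 and Lck summed to between 3874 and 4133 counts per 1000000 UMIs (CPM) in conventional CD4 T cells and to 49.2 to 89.8 CPM in myeloid cells. A list of 5 B cell genes summed to between 17731 and 19974 CPM in B cells, 224 to 256 CPM in conventional CD4 T cells and 11764 to 15768 CPM in myeloid cells. Most of the myeloid sum was Cd74, a chain that works with MHC class II in B and dendritic cells alike, at 11319 to 15306 CPM, while Cd79b stood at 17.5 to 32.0 CPM there against 963 to 1158 CPM in B cells. The CD8 T list was higher in myeloid cells (3231 to 7404 CPM) than in CD8 T cells (993 to 1211 CPM), through Ccl5 at 3133 to 7330 CPM, while Nkg7 stood at 0 to 14.4 CPM in myeloid and 508 to 629 CPM in CD8 T cells. The myeloid list reached 6926 to 7842 CPM in B cells through the class II gene H2-Aa (6010 to 6940 CPM), while Tyrobp had 14.8 to 25 CPM there against 1215 to 1752 CPM in myeloid cells. The part of free RNA in the values below was not tested. Levels of members in a class are CPM of the UMIs summed over its cells in 1 mouse, with the total scaled by the TMM factor of the fit. In such sums fewer expressing cells and less RNA per cell cannot be told apart, and values from single cells follow the sums.

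The sequences before some of the members hold the letters of the response elements described above. The 250 bases before the start site were searched on both strands for the ISRE letters GAAANNGAAA, with overlapping matches counted, in RefSeq promoters of build GRCm38.p6. Of the 34 members with a promoter in that table, 14 (41.2%) held a match, against 936 of 27025 genes (3.46%). The letters TTCNNNGAA of the interferon-gamma activated site (GAS) were in 5 of the 34 members (14.7%) and in 8.13% of all genes. A match is a description of letters and not a measured binding site. Stretches of 6 members of the Ifit, Isg15, Oas and effector groups are shown, with the ISRE letters in capitals.
Ifit1 (chr19:34640760-34640823, plus strand): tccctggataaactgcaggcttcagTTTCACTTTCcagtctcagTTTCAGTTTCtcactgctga
Ifit3 (chr19:34583348-34583426, plus strand): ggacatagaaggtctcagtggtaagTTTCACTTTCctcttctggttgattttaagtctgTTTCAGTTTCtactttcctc
Isg15 (chr4:156200862-156200921, minus strand): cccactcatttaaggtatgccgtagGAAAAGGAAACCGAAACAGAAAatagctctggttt
Bst2 (chr8:71537568-71537627, minus strand): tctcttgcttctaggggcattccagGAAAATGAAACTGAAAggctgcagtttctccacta
Rsad2 (chr12:26456538-26456597, minus strand): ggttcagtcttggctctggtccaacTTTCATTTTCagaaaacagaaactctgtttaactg
Oas1a (chr5:120907526-120907585, minus strand): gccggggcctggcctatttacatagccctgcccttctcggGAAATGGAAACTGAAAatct
Ifit1 and Ifit3 each held 2 separate matches, both on the reverse strand. Isg15 held 3 matches that overlap in a single run, and Bst2 and Oas1a each held 2 that overlap. The stretch before Ifit3b was identical to that of Ifit3 at 79 of 79 bases. These genes are near-identical copies, so UMIs may be split between them and their levels are uncertain.

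**Figure D1:**
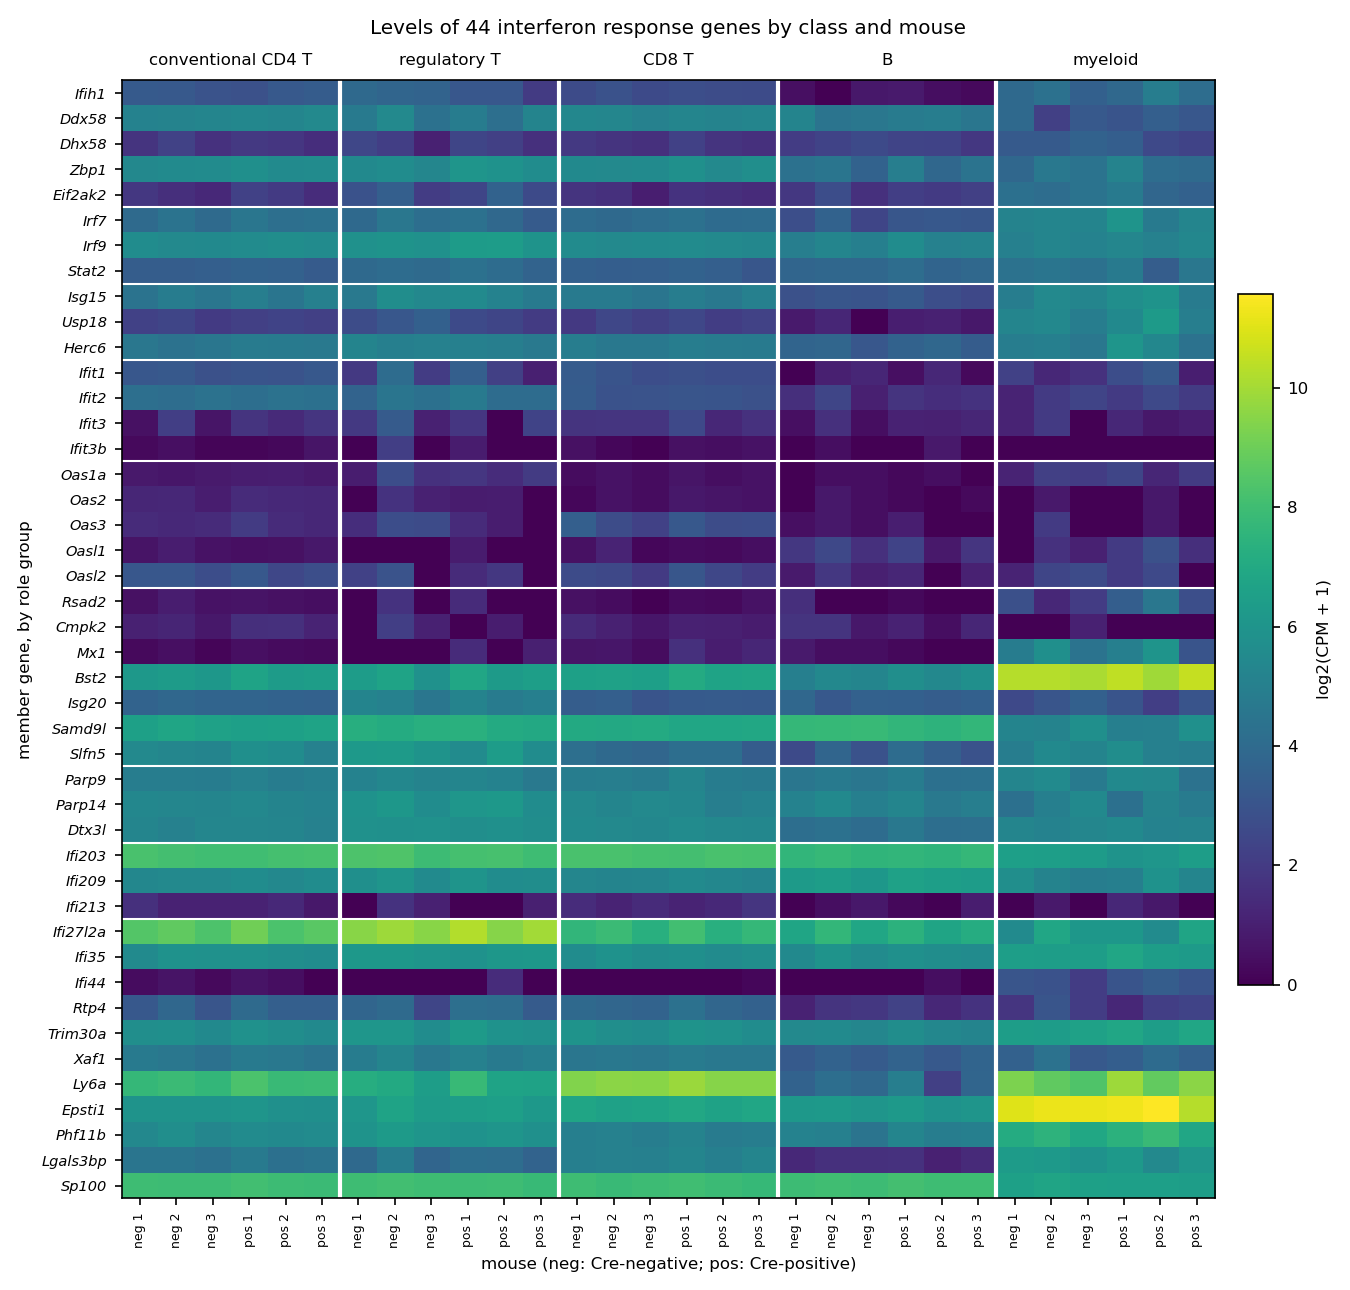
Heat map of log2(CPM + 1) for the 44 members, in rows by role, in each of the 6 mice of 5 classes, in columns. The myeloid columns stand apart at Epsti1, Bst2, Usp18 and Mx1, and the B columns are low at Ly6a and Ifih1. The Oas rows, and the Ifit rows other than Ifit2, are low in all classes.

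In conventional CD4 T cells 38 of the 44 members passed the low-count filter of the test. The 6 with the highest mean CPM were Ifi27l2a, Ifi203, Sp100, Ly6a, Samd9l and Bst2, where a UMI marks a captured transcript end and is not scaled by length. Ifi27l2a, an interferon-induced gene of the Ifi27 family, stood at 356, 435 and 322 CPM in Cre-negative mice 1 to 3 and at 542, 313 and 391 CPM in Cre-positive mice 1 to 3. Both the highest and the lowest of these 6 values came from Cre-positive mice. The PYHIN gene Ifi203, of a family of DNA-binding proteins, stood at 302, 279 and 260 CPM against 256, 283 and 297 CPM. Sp100, a component of nuclear bodies, stood at 250, 247 and 246 CPM against 265, 243 and 234 CPM. The genotypes overlapped for both genes. Samd9l, a restriction factor of viral translation, stood at 93.9, 110 and 96.5 CPM against 90.8, 94.7 and 102 CPM.

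The members most used to read an interferon response were far lower in these cells. Isg15, a ubiquitin-like protein that is attached to other proteins, had 20.2, 27.7 and 22.1 CPM in Cre-negative and 30.1, 21.8 and 31.8 CPM in Cre-positive mice. Ifit1, which binds viral RNA, had 7.93, 8.49 and 6.21 CPM against 7.15, 6.70 and 8.06 CPM. Irf7, the factor that amplifies interferon production, had 15.1, 20.3 and 15.1 CPM against 22.3, 17.9 and 19.0 CPM. For each of these 3 genes the genotypes overlapped. Rsad2 (viperin), Mx1, Ifi44, Oas1a, Oasl1 and Ifit3b had a mean under 1 CPM and did not pass the filter.

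No member passed the test between the genotypes in any class, by the quasi-likelihood test of edgeR with Benjamini-Hochberg adjustment over all genes. None of the 38 tested was called in conventional CD4 T cells, where 0.00947% of the 10556 genes tested were. In regulatory T cells none of 28 was called (all genes 0.0133%), in CD8 T cells none of 36 (all genes 0.0693%), in B cells none of 26 (all genes 0.0330%) and in myeloid cells none of 27 (all genes 0.00%). The smallest adjusted p of a member was 0.786 in conventional CD4 T, 0.836 in regulatory T, 0.550 in CD8 T, 0.820 in B and 0.999 in myeloid cells. At an unadjusted p under 0.05 there were 4 members in conventional CD4 T cells (4.95% of all genes), 3 in regulatory T cells (5.0%), 3 in CD8 T cells (6.60%), 2 in B cells (3.91%) and 0 in myeloid cells (2.53%). DESeq2 called none either, with 2, 0, 1, 1 and 2 members at an unadjusted p under 0.05 in the same order, beside 198 of 18092, 91 of 14889, 264 of 17394, 115 of 16255 and 100 of 15780 genes (Bst2 in conventional CD4 T, CD8 T and B cells, Ly6a in conventional CD4 T and myeloid cells, and Rsad2 in myeloid cells).

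The direction of the members was mixed. Higher in Cre-positive mice were 26 of 38 in conventional CD4 T, 12 of 28 in regulatory T, 21 of 36 in CD8 T, 16 of 26 in B and 15 of 27 in myeloid cells. Their median log2 fold change, Cre-positive over Cre-negative, was 0.08 in conventional CD4 T, -0.05 in regulatory T, 0.08 in CD8 T, 0.03 in B and 0.04 in myeloid cells, and the median of all genes in conventional CD4 T cells was 0.0013. The members' median log2 deviation from their genotype means varied between mice. Its SD was 0.088 in conventional CD4 T, 0.17 in regulatory T, 0.10 in CD8 T, 0.15 in B and 0.15 in myeloid cells (n = 6). The median shifts between genotypes were below that spread in each class. That SD is a spread of single mice, and the error of a difference between means of 3 mice is smaller. With 1 mouse left out the median ran from 0.05 to 0.10 in conventional CD4 T cells, and elsewhere its sign turned. It ran from -0.12 to 0.11 in regulatory T cells (above 0 without Cre-negative 2 or Cre-positive 3), from -0.08 to 0.12 in CD8 T and from -0.04 to 0.18 in B cells (both below 0 without Cre-negative 3 or Cre-positive 1), and from -0.05 to 0.15 in myeloid cells (below 0 without Cre-negative 1 or Cre-positive 1).

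**Figure D2:**
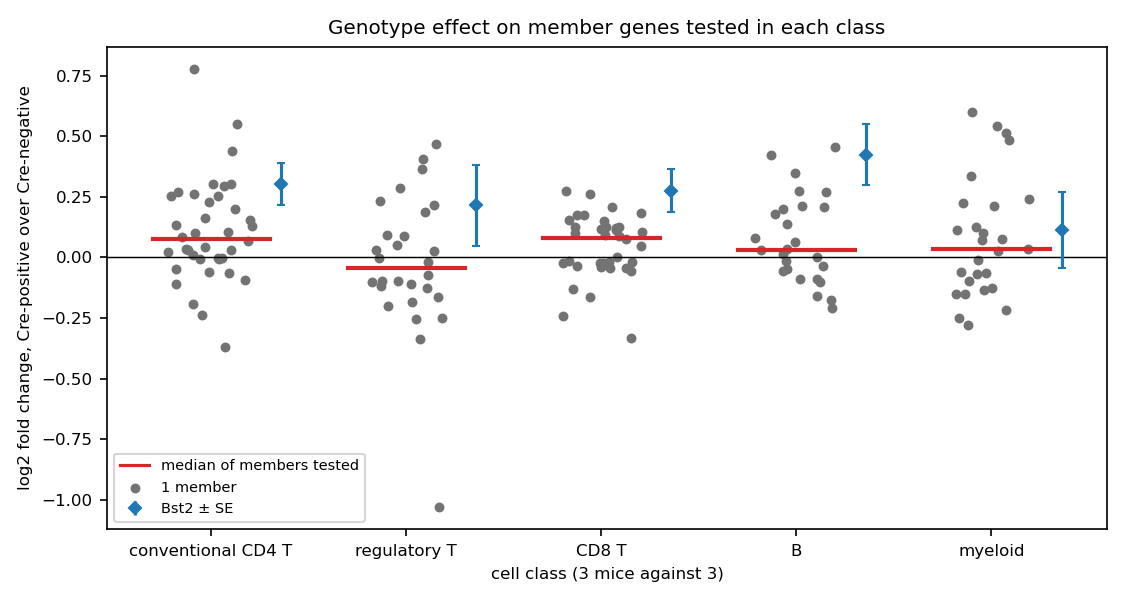
Log2 fold change of each tested member (grey points), Cre-positive over Cre-negative, in 5 classes of 3 mice against 3; red lines are the medians of the tested members and blue diamonds are Bst2 with its standard error. The medians lie between -0.05 and 0.08, and Bst2 is above 0 in conventional CD4 T, CD8 T and B cells.

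Bst2 (tetherin), a membrane protein that holds budding virus particles at the cell, had the smallest p of the members in 3 classes. In conventional CD4 T cells it stood at 71.2, 79.6 and 69.6 CPM in Cre-negative and 105, 80.5 and 87.0 CPM in Cre-positive mice. The log2 fold change was 0.30 (SE 0.0868, adjusted p = 0.786 by edgeR). In CD8 T cells Bst2 had 96.0, 99.2 and 91.5 CPM against 136, 103 and 109 CPM (log2 fold change 0.27, SE 0.0897, adjusted p = 0.550 by edgeR). In B cells, which CD4-Cre does not target, it had 31.1, 41.4 and 37.0 CPM against 51.6, 41.7 and 52.6 CPM (log2 fold change 0.42, SE 0.126, adjusted p = 0.820 by edgeR). In each of the 3 classes the 3 Cre-positive values lay above all 3 Cre-negative ones, but in B cells only by the step from 41.4 to 41.7 CPM and in conventional CD4 T cells by that from 79.6 to 80.5 CPM. These classes come from the same 6 libraries and are not independent of each other.

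In the other classes and members the smallest p values went in both directions. In conventional CD4 T cells Herc6, the ligase that attaches Isg15, had 23.1, 19.3 and 22.7 CPM against 26.8, 26.5 and 25 CPM. The glycolipid-anchored surface protein Ly6a (Sca-1) had 209, 238 and 203 CPM against 312, 230 and 235 CPM there, and the nucleotide kinase Cmpk2 was between 0.690 and 2.05 CPM in the 6 mice. Ifih1 (MDA5), a sensor of double-stranded RNA, was lower in regulatory T cells of Cre-positive mice, with 14.7, 12.5 and 11.7 CPM in Cre-negative against 7.71, 7.95 and 3.00 CPM in Cre-positive mice (log2 fold change -1.03, unadjusted p = 0.0146 by edgeR). The nucleic acid sensor Zbp1 had log2 fold changes of 0.40 in regulatory T and 0.17 in CD8 T cells, and Irf9 0.36 in regulatory T and 0.28 in B cells. The fourth smallest p of regulatory T cells was that of Ifi27l2a, with a log2 fold change of 0.29. Parp14, an ADP-ribosyl transferase, had a log2 fold change of -0.24 in CD8 T cells. Samd9l was lower in CD8 T cells, at 129, 128 and 133 CPM against 114, 114 and 120 CPM, and in B cells, at 209, 215 and 225 CPM against 197, 180 and 203 CPM. The PYHIN gene Ifi209 had a log2 fold change of 0.21 in B cells. In myeloid cells the smallest p were those of Ly6a, at 633, 425 and 335 CPM against 927, 437 and 753 CPM, Usp18 (0.54 on the log2 scale), Ifi203 (-0.28) and Herc6 (0.51). Usp18 was 0.0073 without Cre-positive 2 and 0.81 without Cre-positive 3, and Herc6 was 0.14 without Cre-positive 1 and 0.83 without Cre-positive 3. Ifi203 was -0.45 without Cre-positive 3, and Ly6a 0.36 without Cre-positive 1. In the lymphocytes, leaving out Cre-positive 1 took Ly6a in conventional CD4 T cells to 0.10, Irf9 in B cells to 0.04, Zbp1 in CD8 T cells to 0.09 and Ifi27l2a in regulatory T cells to 0.11. None of these passed. The groups of 3 mice did not overlap for 3 tested members in conventional CD4 T cells (Bst2, Herc6 and Oas2; 10.4% of all genes) and 4 in regulatory T cells (Irf9, Ifih1, Dtx3l and Sp100; 9.58%). They did not overlap for Bst2 and Samd9l, 2 members each time, in CD8 T (11.8%) and B cells (9.25%), and for 1 member, Sp100, in myeloid cells (7.61%). Apart from those of smallest p, these members were chosen after their values were seen.

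Cre-positive 1 had the highest level of 20 of the 38 tested members (52.6%) in conventional CD4 T cells, of 20 of 36 (55.6%) in CD8 T, of 12 of 26 (46.2%) in B and of 9 of 27 (33.3%) in myeloid cells. Over all genes tested it was the highest mouse for 18.3%, 15.4%, 14.1% and 20.5% in the same order. For regulatory T cells it led for 9 of 28 members, and Cre-negative 2 led for 11. The members in Cre-positive 1 were above their mean over the 6 mice by a median of 0.15 to 0.22 on the log2 scale across the 5 classes. Without that mouse 22 of 38 members were higher in Cre-positive mice in conventional CD4 T cells and 11 of 36 in CD8 T cells, where the median log2 fold change became -0.08. Among members tested in regulatory T cells 8 of 29, and in B cells 8 of 26, were then higher, and the log2 fold change of Bst2 was 0.19 in conventional CD4 T, 0.14 in CD8 T and 0.38 in B cells. Cre-positive 1 also had the lowest median depth, at 4237 UMIs per cell, and the highest share of conventional CD4 T cells with an activated or memory marker UMI, 18.4% against 16.9%, 15.5% and 13% in Cre-negative mice and 15.9% and 10.4% in the other Cre-positive mice. In the other classes Cre-positive 1 did not have the highest such share. It had 31.7% in CD8 T cells and 40.6% in regulatory T cells, against 32.7% and 52.2% in Cre-negative 1. In myeloid cells it had 71.1%, against 75.9% in Cre-negative 2, and in B cells its share of 7.27% was the lowest. The part of depth and of activated cells in the values of Cre-positive 1 was not tested.

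The genotype effect on members was not shown to differ between classes. In an interaction fit with the mouse as a block, no member was called for regulatory T (all genes 0.00%), CD8 T (0.116%) or B cells (0.0289%), each against conventional CD4 T cells. At an unadjusted p under 0.05 there were 3 members for regulatory T cells (Ifih1, Herc6 and Slfn5; 465 of 9729 genes), 2 for CD8 T cells (Ly6a and Epsti1; 592 of 10308 genes) and 0 for B cells (524 of 10378 genes). The member nearest to a call was Ly6a in CD8 T cells, whose effect was 0.14 lower on the log2 scale than in conventional CD4 T cells (-0.14, SE 0.0448, adjusted p = 0.363 by edgeR). It passed with other size factors, without the low-count filter and among cells of 2000 or more UMIs, and its adjusted p over the alternatives ran from 0.0199 to 1.00.

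Levels differed between the classes of each mouse far more than between genotypes. These contrasts compare each class with conventional CD4 T cells over the same 6 mice. In regulatory T cells 11 of 34 tested members were higher (all genes 18.0%) and 6 lower (all genes 17.5%). In CD8 T cells 14 of 36 were higher (22.2%) and 7 lower (22.2%). In B cells 5 of 33 were higher (34.0%) and 24 lower (35.2%), and in myeloid cells 18 of 35 were higher (35.8%) and 12 lower (34.3%). Fits within 1 class tested only 28 members in regulatory T, 26 in B and 27 in myeloid cells. Members with few UMIs in 1 class entered through the class where they were higher, so the filter partly set their direction.

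Rises in regulatory T cells included Ifi27l2a, at 891 ± 197 CPM against 393 ± 85.8 (SD over 6 mice), a log2 fold change of 1.00 (SE 0.0351, adjusted p = 5.83e-39 by edgeR), and the exonuclease Isg20 (1.16 on the log2 scale). The ADP-ribosylation genes Parp14 and Dtx3l also rose, by 0.48 and 0.39. Ly6a fell by 1.04 (SE 0.116, adjusted p = 1.6e-04 by edgeR), to 131 ± 48.9 CPM from 238 ± 38.8.

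Ly6a and Ifi27l2a moved in the opposite direction in CD8 T cells. Ly6a stood at 668, 754 and 741 CPM in Cre-negative and 916, 707 and 716 CPM in Cre-positive mice, above every value in conventional CD4 T cells (log2 fold change 1.77, SE 0.0274, adjusted p = 4.88e-28 by edgeR). Ifi27l2a fell by 0.84. Epsti1, an interferon-induced gene, rose by 0.99, Lgals3bp, a secreted glycoprotein gene, by 0.79 and the oligoadenylate synthetase Oas3 by 1.90. Slfn5 fell by 1.40 and Ifit2 by 1.24, while Ifit1 and Ifit3 were not called.

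In B cells Ifit1, Ifit2 and Isg15 were lower than in conventional CD4 T cells, and the other Ifit genes were not tested. Isg15 fell by 1.98 on the log2 scale. Ifit1 had 0 to 4 UMIs per mouse in B cells (0.737 ± 0.615 CPM against 7.42 ± 0.880) and Ifit2 3 to 13 (2.28 ± 1.11 CPM against 18.2 ± 1.11). These genes passed the filter through the conventional CD4 T cells, so that the sizes of their falls are imprecise. Ly6a fell by 3.97, to 14.7 ± 8.64 CPM, a level near which free RNA was not told apart from expression. Ifih1, with 0 to 4 UMIs per mouse, stood at 0.405 ± 0.287 CPM against 8.0 ± 1.18, with the same limit. Samd9l rose by 1.05, to 205 ± 15.5 CPM, and Ifi209 by 0.91. The other rises were those of the RNA helicase Dhx58 (0.55), Stat2 (0.45) and Epsti1 (0.18).

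In myeloid cells some members reached levels that no lymphocyte class had. Epsti1 stood at 1243 to 3051 CPM in the 6 mice against 59.1 ± 4.37 CPM in conventional CD4 T cells (log2 fold change 5.36, SE 0.176, adjusted p = 1.41e-07 by edgeR). Bst2 stood at 987 to 1490 CPM (log2 fold change 4.05), and Usp18, the protease that takes Isg15 off proteins and damps the receptor, at 43.4 ± 18.5 CPM (3.65). Mx1, a dynamin-like antiviral GTPase, had 33.9 ± 21.0 CPM, against 0.264 ± 0.105 CPM in conventional CD4 T cells. It passed the filter through the myeloid cells, so that the size of its rise is imprecise. The kinase Eif2ak2 (PKR) rose by 2.96 and Irf7 by 1.18. Ifi27l2a fell by 2.27, Ifi203 by 1.70 and the RNA sensor Ddx58 (RIG-I) by 2.01. Over the 14 alternative settings tried, 76 of the 97 calls between classes held in each setting that tested the member. None changed direction.

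The myeloid class mixes cell types, and its highest members belonged to different cells. The split below was chosen after the values were seen and carries no test. Cells with 2 or more UMIs of Siglech, a marker of plasmacytoid dendritic cells, numbered 145 (16 to 32 per mouse) with a median of 9081 UMIs. They had a mean of 5160 CPM of Bst2, which is itself a known marker of those cells, 2219 CPM of Ly6a, 145 CPM of Irf7 and 277 CPM of Trim30a. The plasmacytoid genes Tcf4 and Irf8, outside the gate, stood at 2447 and 3305 CPM there. Cells with 2 or more UMIs of Fscn1, a marker of migratory dendritic cells, numbered 672 (48 to 176 per mouse) with a median of 2157.5 UMIs and had 998 CPM of Ccr7. They had a mean of 5028 CPM of Epsti1, 258 CPM of Phf11b, 84.8 CPM of Usp18 and 62.7 CPM of Mx1, while Bst2 stood at 256 CPM. The other 823 myeloid cells had 651 CPM of Epsti1 and 284 CPM of Bst2. In every mouse Bst2 was higher in the Siglech cells, and Epsti1 higher in the Fscn1 cells, than in both other subsets. Bst2 in the Siglech cells stood at 4970, 4862 and 4797 CPM in Cre-negative and 5548, 5301 and 5482 CPM in Cre-positive mice. The genotypes overlapped for Bst2 in the Fscn1 cells, at 216, 304 and 166 CPM against 311, 246 and 295 CPM. They also overlapped in the other myeloid cells, at 299, 302 and 228 CPM against 441, 245 and 187 CPM. Bst2 was picked from the members after its values were seen. The share of all genes without overlap was not counted in these subsets. The number of Fscn1 cells per mouse ranged widely, and its part in the class sums of Epsti1 was not tested.

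**Figure D3:**
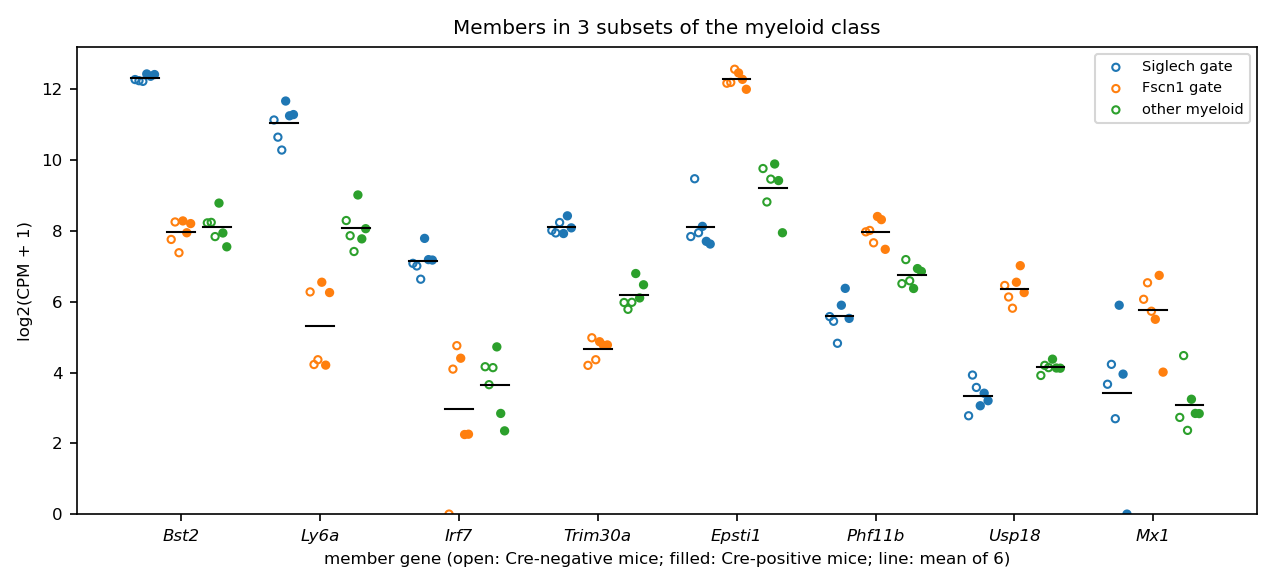
Log2(CPM + 1) of 8 members in 3 subsets of the myeloid class; each point is 1 mouse (open Cre-negative, filled Cre-positive) and each line the mean of 6 mice. Bst2, Ly6a, Irf7 and Trim30a are highest in the Siglech gate, and Epsti1, Phf11b, Usp18 and Mx1 in the Fscn1 gate.

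To describe the share of high cells beside the level of the others, the UMIs of the 44 members were summed in each cell after thinning it to 2000 UMIs. A cut was set in each class at the lowest whole sum that no more than 5% of Cre-negative cells reach. It lay at 10 member UMIs in conventional CD4 T, 13 in regulatory T, 12 in CD8 T, 8 in B and 31 in myeloid cells. Such a cut marks the upper end of a continuous range and not a cell type. In conventional CD4 T cells 3.12% to 7.13% of cells lay within 1 UMI of it. These values are a description, with no test.

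Among conventional CD4 T cells 5.23%, 5.06% and 3.39% lay at or over the cut in Cre-negative mice and 8.39%, 4.22% and 3.81% in Cre-positive mice. Only Cre-positive 1 was above the Cre-negative range. The mean sum of the cells under the cut was 3.65, 3.75 and 3.35 UMIs against 4.01, 3.60 and 3.65 UMIs, and again only Cre-positive 1 was above the Cre-negative range. That mouse was therefore high in both measures, the share of high cells and the mean of the cells under the cut. This does not mean that all its cells were higher. The quartiles of its sums, 2, 4 and 6 UMIs, equalled those of Cre-negative 2. Its 90% quantile was 9 UMIs, against 7 to 8 UMIs in the other mice. The difference in mean sum between genotypes, 0.267 UMIs per 2000, split into 0.086 from the share over the cut, 0.0236 from the level over it and 0.157 from the level under it. Without Cre-positive 1 the difference in mean sum was 0.0217, and without Cre-negative 3 it was 0.0957. Its highest value with a mouse left out was 0.394.

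Cre-positive 1 was also the highest mouse among CD8 T cells. The shares were 3.88%, 3.74% and 2.54% against 6.29%, 3.41% and 2.70%, and the means under the cut were 4.57, 4.52 and 4.35 against 5.01, 4.47 and 4.25 UMIs. The difference of 0.161 UMIs became -0.151 without Cre-positive 1 and 0.0383 without Cre-negative 3. Its highest value with a mouse left out was 0.381. For regulatory T cells the shares were 5.61%, 5.38% and 1.83% against 8.73%, 3.91% and 6.88%. The difference there of 0.344 UMIs split into 0.315 from the share, -0.138 from the level over the cut and 0.167 from the level under it. With the cut at 10% the share gave 0.514 and the level under the cut -0.0244, and at 2% they gave 0.255 and 0.240. The difference in mean sum was -0.0632 without Cre-positive 1, -0.0032 without Cre-negative 3 and 0.663 without Cre-negative 2. In B cells the shares were 3.67%, 5.53% and 2.10% against 5.32%, 3.11% and 3.47%, with a difference in mean sum of 0.0609 UMIs, which was -0.0631 without Cre-positive 1, -0.0223 without Cre-negative 3 and 0.191 without Cre-negative 2. In myeloid cells the shares were 3.23%, 4.64% and 6.34% against 4.92%, 5.50% and 4.76%. The means under the cut there were 9.13, 9.06 and 7.30 against 9.47, 9.29 and 9.24 UMIs, with the lowest value in Cre-negative 3. The difference in mean sum was 0.886 UMIs, and 0.549 without that mouse. Between 55 and 160 myeloid cells per mouse had under 2000 UMIs and were not scored.

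Ly6a, Ifi27l2a and Bst2 hold many of the UMIs in these sums. Without them the difference in mean sum was 0.0720 in conventional CD4 T, -0.0863 in regulatory T, -0.0078 in CD8 T, 0.0150 in B and 0.310 in myeloid cells.

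**Figure D4:**
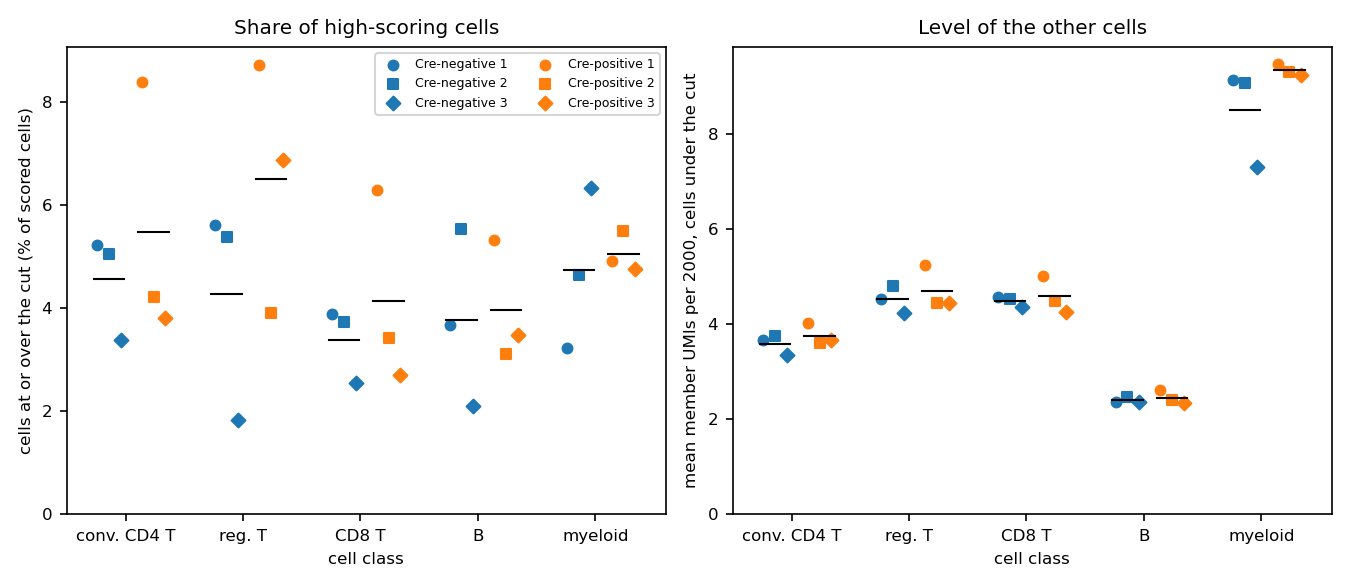
Left, percent of scored cells at or over the cut of their class; right, mean member UMIs per 2000 in the cells under it; each point is 1 mouse (blue Cre-negative, orange Cre-positive) and each line the mean of 3. Cre-positive 1 is the highest mouse in conventional CD4 T, regulatory T and CD8 T cells in both panels, at 8.39%, 8.73% and 6.29% of cells on the left. In B and myeloid cells it is the highest on the right only.

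A cell chosen by its member sum must be high in members, so the members were also dealt in turn, in alphabetical order, into sets A and B, and each was read in cells ranked by the other. Outside the upper end by set A, set B had in conventional CD4 T cells 1.32 ± 0.132 UMIs per 2000 without Cre and 1.41 ± 0.279 with it (mean ± SD, n = 3 mice each). With the sets exchanged the values were 2.54 ± 0.125 and 2.67 ± 0.137 UMIs. The first difference, 0.0970 UMIs, was smaller than both SDs. The second, 0.133 UMIs, was above the SD of the Cre-negative mice and just below that of the Cre-positive mice. In cells over the cut by set A, set B was 2.59 times its level in the cells under it, and 1.88 times with the sets exchanged. Cells high in one set thus tended to be high in the other.

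The members differed in how far their UMIs gathered in those cells. Each member was read in conventional CD4 T cells ranked by the set it is not in, where 451 of 10306 cells (4.38%) lay over the cut of set A and 337 (3.27%) over that of set B. Ifit1 had 60 of its 157 thinned UMIs (38.2%) in the 451 cells. By mouse this share was 31.0%, 41.4% and 16.7% for Cre-negative 1 to 3 and 40.0%, 59.1% and 37.9% for Cre-positive 1 to 3, each above the share of cells. Ifit3 had 34.4% and Oas2 30.8% of few UMIs. Isg15 had 111 of 522 (21.3%), at 12.1%, 29.5% and 10.1% against 21.5%, 19.0% and 30.1% by mouse. Irf7 had 13.2%. At the other end Sp100 had 4.77%, Ifit2 5.03%, Ifi203 5.15% and Ly6a 5.65% of their UMIs in the 337 cells, above those cells' share of 3.27%. Ifit1 and Isg15 thus exceeded the share of the 451 cells by more than Sp100, Ifi203 and Ly6a exceeded that of the 337. These are different sets of cells, ranked by different members. A difference between members cannot be told apart here from one between the rankings. Of the 44 members, 24 exceeded the share of cells in all 6 mice in conventional CD4 T cells, and 13 did in CD8 T cells. In CD8 T cells Ifit1 had 17.6%, 7.14% and 12.5% against 29.4%, 10.5% and 50% of its UMIs in high-ranked cells.

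Among members with 10 or more thinned UMIs, the 12 with an ISRE match had a median of 10.5% of their UMIs in the high-ranked conventional CD4 T cells (5.15% to 38.2%). The 19 with a promoter in the table and no match had 6.52% (4.77% to 20.6%). The share of cells was 4.38% for members read by the ranking of set A and 3.27% by that of set B. The 2 groups hold such members in unequal parts, so their medians do not have the same base. The ranges overlap, and Ifi203, with a match, and Ifit2, without one, were both near the low end.

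**Figure D5:**
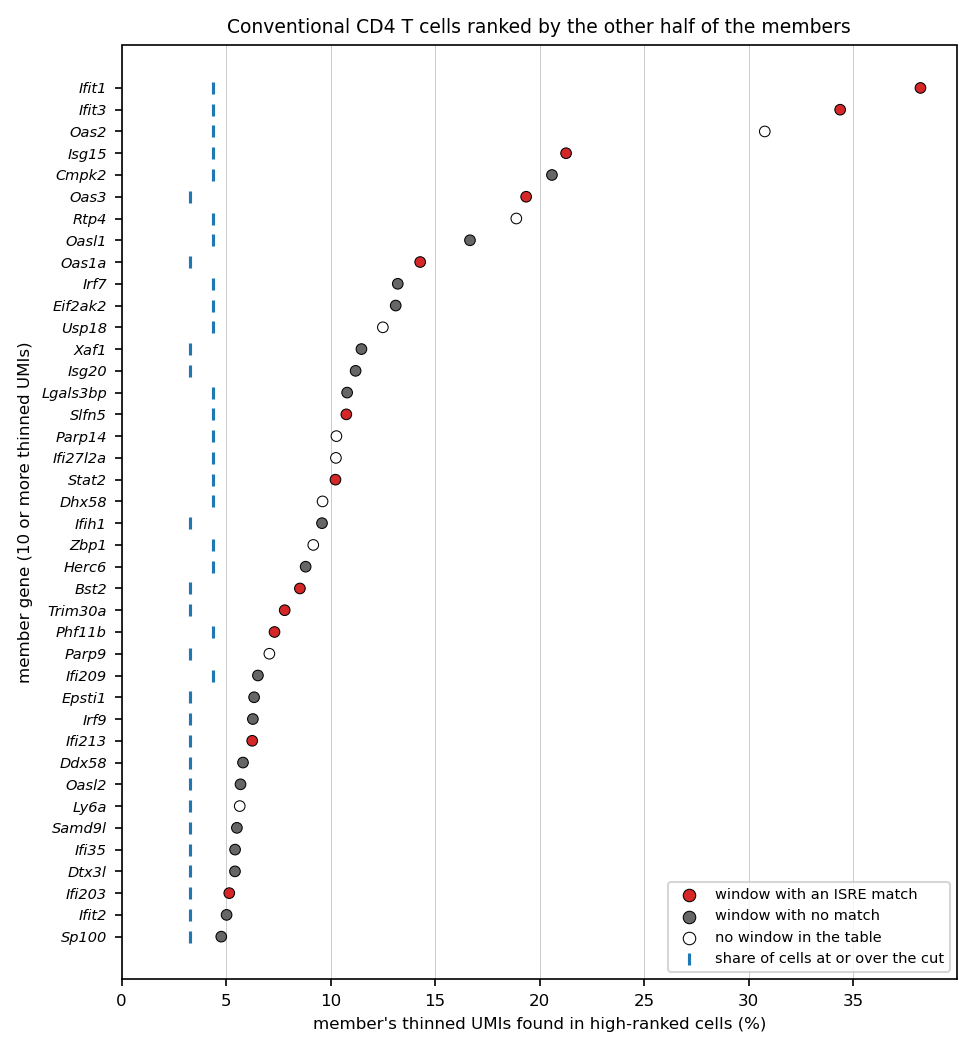
Percent of the thinned UMIs of each member with 10 or more of them found in the conventional CD4 T cells ranked high by the set it is not in, by promoter match (red with an ISRE match, grey without, white no promoter in the table); blue ticks give the percent of cells. Ifit1 and Ifit3 lie farthest right at 38.2% and 34.4%, and Sp100 is near the tick at 4.77%.

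The high-scoring conventional CD4 T cells had a median depth of 4855 UMIs, against 4892 UMIs in the rest. An activated or memory marker UMI (S100a4, Cxcr3, Cxcr6, Ccl5, Maf or Pdcd1) was found in 26.5% of them and in 14.3% of the rest. In CD8 T cells the shares were 36.5% and 30.2%, and in regulatory T cells 59.4% and 42.1%. The part of activated cells in the member sums was not tested.

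Other genes of the pathway, 48 in a list of ligands, receptors, signalling proteins and regulators, gave no call between the genotypes in any class. Of the 24 tested in conventional CD4 T cells 16 were higher in Cre-positive mice, of 19 in regulatory T cells 7, of 23 in CD8 T cells 15, of 22 in B cells 12 and of 21 in myeloid cells 13. At an unadjusted p under 0.05 there were 3, 0, 3, 4 and 1 in the same order, where the share over all genes was 4.95%, 5.0%, 6.60%, 3.91% and 2.53%; those of CD8 T cells were Irf8, Socs1 and Socs3. The 4 of smallest p in conventional CD4 T cells were the feedback inhibitor Socs3 (0.19 on the log2 scale), the RNA-editing enzyme Adar (-0.23), and the interferon-gamma receptor chains Ifngr1 (0.16) and Ifngr2 (-0.16). Of the interferons themselves, the 19 type I and III genes other than Ifnk had 1 UMI in all 51515 cells. No cell class could be named as the source of these 19 at this depth, and Ifnk was not part of this count.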

How the data were processed

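The authors deposited unnormalized UMI counts for every gene and cell. Cell Ranger 6.1.2 and build mm10 are named in the submitters' processing notes. Which annotation release was used is not given in the sources used here. The labels give 2 groups of 3 mice. Some genes, the floxed one among them, and the planned fit of naive cells are not reported here. Members, lists and gates were chosen with earlier results of these data known.

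Cells needed 500 UMIs, 300 genes and a mitochondrial share of no more than 10%. Scrublet in scanpy 1.11.5 scored doublets, and the highest-scoring 0.8% per 1000 barcodes were removed (539 to 957 cells per library, where the tool's own threshold gave 157 to 416). T cells needed 1 or more UMIs of Cd3d, Cd3e or Cd3g, none of Cd79a and no more than 1 of 11 myeloid genes. Conventional CD4 T cells had a Cd4 UMI without Foxp3, Cd8a or Cd8b1, regulatory T cells a Foxp3 UMI without Cd8a or Cd8b1, and CD8 T cells a Cd8b1 UMI without Cd4 or Foxp3. B cells had 2 or more Cd79a UMIs and no Cd3 UMI, and myeloid cells 5 or more UMIs of the myeloid genes (Lyz2, Csf1r, Cst3, Itgax, Clec9a, Xcr1, Siglech, Fscn1, C1qa, C1qb and C1qc) and no Cd3 or Cd79a UMI.

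UMI counts were summed per mouse and class, as the mouse is the replicate. The sums were tested with edgeR 4.0.16 in R 4.3.3 (quasi-likelihood, robust, TMM, filterByExpr), and p was adjusted by Benjamini-Hochberg over all genes at 0.05. Contrasts of classes had the mouse as a block. The fits were checked on simulated data. Alternatives were DESeq2 1.42.0, other size factors, no filter, a replicate block, doublets kept, 5% mitochondrial UMIs, cells of 2000 or more UMIs, stricter gates, the high-scoring cells left out, and each mouse left out. Named are the 4 members of smallest p per class, the 6 highest in conventional CD4 T cells and 1 to 3 per role.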

Additional observations from a re-analysis of the deposited data

How the results depend on the processing

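No member was called between the genotypes in any class under any alternative run. The number of all genes called moved. In conventional CD4 T cells 1 gene was called, and 11 without the low-count filter, 3 with DESeq2, 2 with the replicate block, 2 at 5% mitochondrial UMIs, 3 with high-scoring cells left out and 1 to 9 with a mouse left out. In regulatory T cells (1 called) the counts were 6 without the filter, 0 with DESeq2, 2 with the replicate block, 0 at 5% mitochondrial UMIs and 0 to 6 with a mouse left out. In CD8 T cells (7 called) they were 31 without the filter, 3 with DESeq2, 31 with the replicate block and 4 to 21 with a mouse left out. In B cells (3 called) they were 5 without the filter, 1 with DESeq2, 0 with the replicate block, 1 with doublets kept, 0 at 5% mitochondrial UMIs, 0 with high-scoring cells left out and 0 to 5 with a mouse left out. In myeloid cells (0 called) they were 5 without the filter, 5 with the replicate block and 0 to 2 with a mouse left out. Replicate numbers were not used to pair the mice, since not every pair with the same number had deviations that correlated over 0.1. The pair numbered 3 correlated above 0 in each class, from 0.0315 in B to 0.218 in conventional CD4 T cells. The mice were thus not shown to be unpaired. Between classes, 11 rather than 17 members were called in regulatory T cells with stricter gates, and DESeq2 called 2881 rather than 4576 genes in CD8 T cells. For the difference of the genotype effect between CD8 T and conventional CD4 T cells, 1 member (Ly6a) was called with other size factors, without the filter and at 2000 UMIs; genes called numbered 12, and 0 with DESeq2, 0 with doublets kept, 3 at 5% mitochondrial UMIs, 0 with stricter gates and 0 to 25 with a mouse left out. For B cells the genes called numbered 3, and 17 without the filter, 1 with DESeq2, 5 at 5% mitochondrial UMIs, 5 with stricter gates and 1 to 9 with a mouse left out; for regulatory T cells 0, and 0 to 4 with a mouse left out. The share difference over the cut in regulatory T cells, 2.24 percentage points, was 4.95 with the cut at 10% and -0.33 without Ly6a, Ifi27l2a and Bst2. In myeloid cells 0.326 points became 2.59 and -1.10, and the difference in mean sum of 0.886 UMIs became -0.041 per 1000 UMIs and 0.310 without those 3 genes. Set A read in myeloid cells under the cut of set B had 8.48 ± 0.544 UMIs in Cre-negative and 9.40 ± 0.130 UMIs in Cre-positive mice. The difference of 0.922 UMIs was above both SDs, and it became -0.058 per 1000 UMIs. The causes were not tested. Few UMIs limit members such as most Oas and Ifit genes. Depth also limits the regulatory T class, with the fewest cells, and the myeloid class, with the shallowest.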
